A study of Homo sapiens with 6 samples.

Results

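Amino acid transporters move amino acids across the plasma membrane, and their transcripts were examined here in Meg-01 cells with and without propionate (C3), a fatty acid that bacteria of the gut release. The group comprised 10 genes, SLC7A5, SLC3A2, SLC7A1, SLC7A11, SLC1A4, SLC1A5, SLC38A1, SLC38A2, SLC6A9 and SLC43A1, found in the table by gene symbol. These are 10 of 58735 genes in the table, and all 10 passed the count filter that left 15078 genes for testing. The Meg-01 line, of megakaryoblastic origin, was grown in RPMI medium with serum and added glutamine. RNA was sequenced in 3 libraries of untreated control cells and 3 libraries of cells treated with sodium propionate at 500 µM. The sample labels give 48 h for the C3 libraries and no time for the control libraries. The study's methods give both 24 h and 48 h as incubation times. The study describes the libraries of a group as technical replicates of this single line, so p-values measure the spread between these libraries, which need not include that between independent cultures. Library totals ranged from 16159449 to 22821722 counts. Megakaryoblast markers were present, such as ITGA2B with 419 ± 24.9 TPM (counts scaled by exon length and library, SD, n = 3) in control cells, while PF4 and GP1BB were at 0 in every library. Of the 13 listed megakaryoblast markers, 11 were tested. At an adjusted p-value below 0.01 by edgeR, 2 of these were lower in C3 cells, GP1BA (log2 fold change -0.49) and NFE2 (-0.38), and 0 were higher. By the same rule 4.06% of all tested genes were lower and 6.51% higher, which also applies to the marker lists below. At an unadjusted p below 0.05, 3 of the 11 were lower and 1 higher, beside 15.3% and 16.8% of all tested genes. The list of these markers summed to 1290 to 1430 TPM in control and 1340 to 1370 in C3 libraries. Summed levels of 3 T cell, 3 B cell and 3 stromal markers stayed at or below 11.1 TPM in every library. The monocyte list (3 genes, 2 tested) summed to 68.4 to 70.1 TPM in control and 51.2 to 57.4 in C3 libraries, and LYZ was its 1 called gene (log2 fold change -0.51). The stromal list summed to 0.126 to 0.211 and 0.374 to 0.773, and its 1 tested gene, COL1A1, was higher but met the count filter only through the C3 libraries. The 5 erythroid markers summed to 27.6 to 34.9 TPM in control and 31.4 to 42.3 in C3 libraries. Of these, edgeR called 0, and 1 was higher at an unadjusted p below 0.05, beside 16.8% of all tested genes. The part of these differences in the results was not tested.

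The transporters of this group work as exchangers, uniporters and sodium-coupled pumps that together set the amino acid supply of a growing cell. SLC7A5 (LAT1) imports large neutral amino acids such as leucine and SLC7A11 (xCT) imports cystine in exchange for glutamate, and both are light chains that reach the membrane as partners of the heavy chain SLC3A2 (CD98). SLC1A5 (ASCT2) and SLC1A4 (ASCT1) exchange small neutral amino acids, with glutamine as a main substrate of SLC1A5. SLC38A1 and SLC38A2 concentrate glutamine and alanine with sodium, SLC7A1 carries arginine and lysine, SLC6A9 carries glycine, and SLC43A1 (LAT3) is a sodium-independent facilitator of branched-chain amino acids. Many genes of this kind are known targets of the transcription factor ATF4 in amino acid shortage and of MYC in proliferating cells.

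C3 treatment left most of these transcripts near their control level, and SLC43A1 alone passed the test, at a level 15.8% lower. In RNA from a whole culture, fewer cells of a kind and less RNA per cell cannot be told apart. Of the 10 genes, 0 were higher and 1 was lower at an adjusted p-value below 0.01 (quasi-likelihood test of edgeR, Benjamini-Hochberg adjustment over all tested genes). Among all tested genes, 6.51% were higher and 4.06% lower by this rule. With the added gate of a fold change above 1.3, which the study used for differentially expressed genes, 0 transporters were called in either direction by edgeR, DESeq2 or limma-voom, beside 5.05% higher and 1.47% lower among all tested genes. At an unadjusted p-value below 0.05, 3 transporters were lower (SLC43A1, SLC7A11 and SLC1A5) and 0 higher, beside 15.3% and 16.8% of all tested genes. The same 3 genes were those whose C3 libraries all lay below the control libraries, which held for 16.9% of all tested genes, while 17.5% had all C3 libraries above the controls and 0 transporters did. The median log2 fold change of the 10 genes was -0.086, compared with 0.0021 over all tested genes. For 8 of the 10 genes, the whole 95% interval of the change lay within 1.3-fold in either direction, the exceptions being SLC7A11 and SLC43A1.

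**Figure D1:**
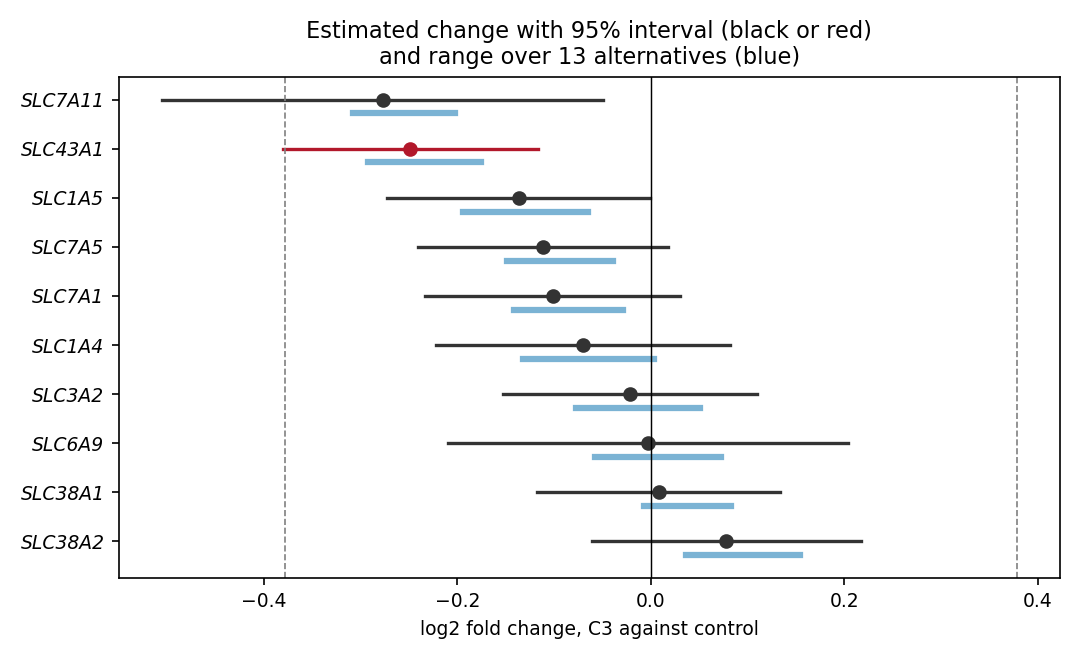
Log2 fold change (C3 against control, x axis) of the 10 transporter genes, with dots for the estimate of edgeR's test, horizontal lines for its 95% interval (red where the adjusted p-value was below 0.01) and blue bars for the range over 13 alternative analyses. Dashed lines mark a fold change of 1.3, and the red SLC43A1 sits at -0.25.

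SLC43A1 (ENSG00000149150, GRCh38 chromosome 11, 57484534 to 57515780, reverse strand) has exons that overlap no other annotated gene. Its normalised counts, that is counts scaled to a common library size, were 1766, 1748 and 1750.5 in control replicates 1 to 3, and 1576, 1406 and 1452 in C3 replicates 1 to 3. The control libraries were nearly level, with a coefficient of variation of 0.574%, which is below the 2.5% of counting error alone, and every C3 library lay below all of them. The group means were 1755 ± 10.1 and 1478 ± 88.1 (SD, n = 3 libraries each). The fold change was 0.842 with a 95% interval of 0.768 to 0.922 (log2 fold change -0.25 ± 0.064 SE, adjusted p = 0.0069 by edgeR). A two-sided exact permutation test gave p = 0.1, which is as small as it can be with 3 libraries in each group. The direction held with each library left out, with log2 fold changes of -0.29 to -0.21, but edgeR's adjusted p was then between 0.0142 and 0.0517 in 5 of 6 cases, the exception being 8.2e-04 without C3 replicate 1. Scaling by library size alone gave -0.18 (adjusted p = 0.048, edgeR). By rank of p-value, SLC43A1 stood at place 1403 among all tested genes.

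The promoter window of SLC43A1 is shown because this was the only called transporter. RefSeq windows (GRCh38.p14) cover 250 bases before to 50 bases after a start site, and 9 of the 10 genes had at least 1 entry, 16 windows in all. SLC7A11 had none. For SLC43A1, the window nearest the annotated gene start is chr11:57515653-57515952 on the reverse strand, written 5′ to 3′ with the E-box CACGTG in capitals, a sequence known to be bound by MYC and related factors.
SLC43A1: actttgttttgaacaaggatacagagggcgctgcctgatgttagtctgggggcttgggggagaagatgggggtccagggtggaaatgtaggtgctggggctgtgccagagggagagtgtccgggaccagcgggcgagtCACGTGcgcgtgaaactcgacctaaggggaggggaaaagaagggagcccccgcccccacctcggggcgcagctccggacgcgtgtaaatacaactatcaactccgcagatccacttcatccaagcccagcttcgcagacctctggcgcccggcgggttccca
The E-box begins 112 bases before the start site. It was found in 3 of the 16 windows, each of another gene, against 7.26% of all 35116 promoter windows of the same length. The matches are set below each other with 10 bases on either side, since SLC7A5 and SLC1A5, which did not pass the test, also hold it. They lie at chr11:57515799-57515824, chr16:87869622-87869647 and chr19:46787328-46787353, all on the reverse strand, 112, 130 and 50 bases before their start sites. For SLC1A5 that start site is 1301 bases inside the annotated gene.
SLC43A1: gcgggcgagtCACGTGcgcgtgaaac
SLC7A5: ccggacgacgCACGTGctccgagctg
SLC1A5: cgggagtggtCACGTGgacaggacgg
A match describes the letters only. MYC itself had 13506 ± 309 normalised counts in control and 14576 ± 581 in C3 libraries (SD, n = 3, log2 fold change 0.11, adjusted p = 0.237 from edgeR's test).

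SLC1A5 was the most abundant transporter of the group, and its values were lower in C3 cells without passing the test. The gene (ENSG00000105281) maps to chromosome 19 (46774883 to 46788594, reverse strand). Normalised counts were 17439, 17627 and 17131 in control replicates 1 to 3, and 17128, 15453 and 14915 in C3 replicates 1 to 3. The C3 libraries were thus all below the control libraries, but C3 replicate 1 missed control replicate 3 by only a few counts. The log2 fold change was -0.14 (standard error 0.066, 95% interval -0.27 to -4.4e-04). Its adjusted p was 0.154 by edgeR and its exact permutation p 0.1. Without C3 replicate 1 the change was -0.19 (adjusted p = 0.0056, edgeR), and with any other library left out the adjusted p was at least 0.153. Exons of the gene share 23.8% of their bases with annotation of the other strand. The strand setting of the counting is unknown, so reads in the shared part may not be told apart.

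SLC7A11, the cystine carrier, had the lowest point estimate of the group and the fewest counts. It maps to chromosome 4 (ENSG00000151012, 138164097 to 138242349, reverse strand). Normalised counts were 242, 224 and 233 in control replicates 1 to 3, and 186, 201 and 190 in C3 replicates 1 to 3, so the groups did not overlap. The fold change was 0.825, with a 95% interval of 0.704 to 0.967 (log2 fold change -0.28 ± 0.11 SE, adjusted p = 0.081 by edgeR). At 163 to 247 counts per library, counting error alone amounts to a coefficient of variation of 6.88%, above the 3.91% and 4.16% seen in the control and C3 libraries. The antisense gene SLC7A11-AS1 overlaps 8.97% of its exon bases and held 0 to 2 counts per library.

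Neither chain of LAT1 passed the test. SLC7A5 (ENSG00000103257, chromosome 16, 87830023 to 87869507, reverse strand) had normalised counts of 8916, 8951 and 8445 in control replicates 1 to 3, and of 8573, 8001 and 7792 in C3 replicates 1 to 3. Only C3 replicate 1 reached into the control range. The fold change was 0.926 (95% interval 0.846 to 1.01, adjusted p = 0.230 from edgeR's test). SLC3A2 (ENSG00000168003, chromosome 11, 62856004 to 62888880, forward strand) had 3324, 3424 and 3286 in control replicates and 3564, 3184 and 3145 in C3 replicates, so the C3 libraries lay on both sides of the controls. Its fold change was 0.985 (95% interval 0.900 to 1.08, adjusted p = 0.860 from edgeR's test). The pseudogene SLC7A5P1 held at most 0.703% of the SLC7A5 count in any library and SLC7A5P2 had none. Reads that fit both gene and pseudogene were not measured, so the SLC7A5 count is uncertain to that extent.

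Ratios of counts within a library do not depend on how libraries are scaled, and 4 of them were compared. The log2 ratio of SLC7A5 to SLC3A2 was 1.42, 1.39 and 1.36 in control replicates 1 to 3 and 1.27, 1.33 and 1.31 in C3 replicates 1 to 3. All C3 ratios were below all control ratios, with a difference of -0.089 (means 1.39 ± 0.031 and 1.3 ± 0.032, SD, n = 3, exact two-sided permutation p = 0.1, adjusted 0.2 over the 4 ratios). The log2 ratio of SLC7A11 to SLC3A2 was also without overlap, at -3.84 ± 0.081 in control and -4.10 ± 0.15 in C3 libraries (SD, n = 3, exact p = 0.1, adjusted 0.2). C3 replicate 1, at -4.26, lay furthest from the controls, and without it the difference went from -0.26 to -0.17. The ratios of SLC1A4 to SLC1A5 and of SLC38A1 to SLC38A2 overlapped between groups, with differences of 0.070 (exact permutation p = 0.2) and -0.067 (exact permutation p = 0.3). The first was 0.023 without control replicate 2, and the second was -0.024 without C3 replicate 2, -0.044 without control replicate 2 and -0.12 without C3 replicate 1. No comparison of this size can reach an exact p-value below 0.1. The share of all gene pairs whose ratios do not overlap was not computed. Among single tested genes, 16.9% had all C3 libraries below the controls and 17.5% had all above. Both ratios without overlap also share SLC3A2.

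**Figure D2:**
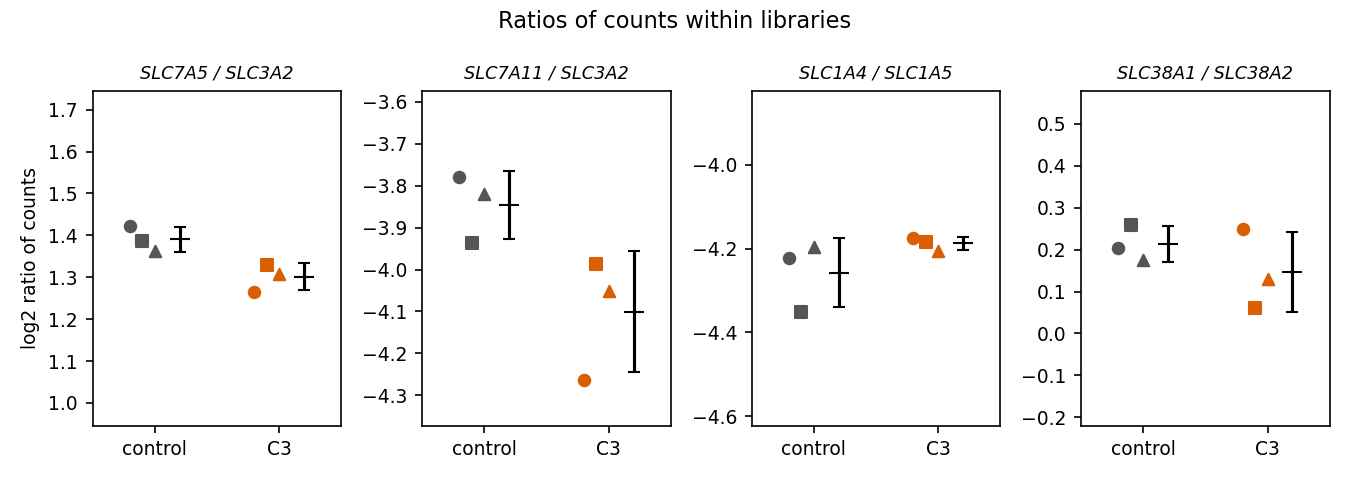
Log2 ratio of the counts of transporter genes within each library (y axis, with the same span in every panel), for control (grey) and C3 (orange) libraries, with circle, square and triangle for replicates 1 to 3 and bars for the mean and SD. The SLC7A5 to SLC3A2 ratios do not overlap between groups (1.36 to 1.42 against 1.27 to 1.33), nor do those of SLC7A11 to SLC3A2, while the other ratios overlap.

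The sodium-coupled glutamine and alanine carriers SLC38A1 and SLC38A2 neighbour each other on the reverse strand of chromosome 12. SLC38A1 (ENSG00000111371, 46183063 to 46270017) had 3818, 3984 and 4111 normalised counts in control replicates 1 to 3 and 3888, 3999.5 and 4086 in C3 replicates 1 to 3. These were the most alike groups among the abundant transporters, with a fold change of 1.01 (95% interval 0.922 to 1.1, adjusted p = 0.946 from edgeR's test). SLC38A2 (ENSG00000134294, 46358188 to 46372773) had 3312, 3328 and 3641 in control replicates and 3272, 3837 and 3732 in C3 replicates. C3 replicates 2 and 3 exceeded all controls and C3 replicate 1 was below all of them. The fold change was 1.06 (95% interval 0.959 to 1.16, adjusted p = 0.463 from edgeR's test).

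The cationic carrier SLC7A1 (ENSG00000139514, chromosome 13, 29509414 to 29595688, reverse strand) had normalised counts of 10630.0, 10553 and 9718 in control replicates 1 to 3 and of 10097, 9467 and 9249 in C3 replicates 1 to 3. C3 replicate 1 lay within the control range and the other C3 libraries below it. The fold change was 0.932 (95% interval 0.851 to 1.02, adjusted p = 0.292 from edgeR's test). SLC1A4 (ENSG00000115902, chromosome 2, 64988477 to 65023865, forward strand), the paralog of SLC1A5, had 934, 863 and 934 in control replicates and 948, 851 and 809 in C3 replicates. The C3 values lay on both sides of the control range, with a fold change of 0.953 (95% interval 0.857 to 1.06, adjusted p = 0.559 from edgeR's test).

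The glycine carrier SLC6A9 (ENSG00000196517, chromosome 1, 43991500 to 44031467, reverse strand), which is known for supplying glycine to haem synthesis in red cell precursors, was the least changed. It had normalised counts of 294, 319 and 270 in control replicates 1 to 3 and of 295, 308 and 281 in C3 replicates 1 to 3, with all C3 values inside the control range. The fold change was 0.998, but at 226 to 358 counts per library its 95% interval reached from 0.865 to 1.15 (adjusted p = 0.990 from edgeR's test). CCDC24 overlaps 7.87% of its exon bases on the other strand and held up to 12.7% of its count.

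Levels between genes were compared as TPM, which divide counts by exon length and by the library's sum of such values. In control cells SLC1A5 led with 966 ± 44.3 TPM, followed by SLC7A5 with 341 ± 22 and SLC7A1 with 248 ± 20.3 (SD, n = 3). These 3 genes kept their order in all 6 libraries without overlapping ranges, and SLC1A5 alone made up 47.7% to 49.6% of the summed TPM of the 10 genes. SLC38A2, SLC3A2, SLC43A1 and SLC38A1 formed a middle tier of 97.2 ± 2.31, 96.7 ± 4.53, 92.0 ± 3.60 and 73.2 ± 0.60 TPM (SD, n = 3). Within this tier the ranges of neighbours over the 6 libraries overlapped. SLC38A2 exceeded SLC3A2 in 3 of 6 libraries, SLC3A2 exceeded SLC43A1 in 6 of 6, and SLC43A1 exceeded SLC38A1 in 5 of 6, the exception lying among the C3 libraries. SLC1A4 (24.2 ± 1.31 TPM), SLC6A9 (10.4 ± 1.1) and SLC7A11 (4.46 ± 0.28) followed in this order in all 6 libraries. The light chain SLC7A5 thus had a higher TPM than its heavy chain SLC3A2, and SLC1A5 had 216 times the TPM of SLC7A11 in control cells. TPM depend on the exon length used, which is that of all annotated exons merged, and they were not used to test the transporters between groups. They carry no TMM scaling, and by mean TPM only SLC1A5, SLC43A1 and SLC7A11 were lower in C3 cells, the other transporters being higher. In the edgeR test, the log2 fold change was negative for 8 of the 10 genes.

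**Figure D3:**
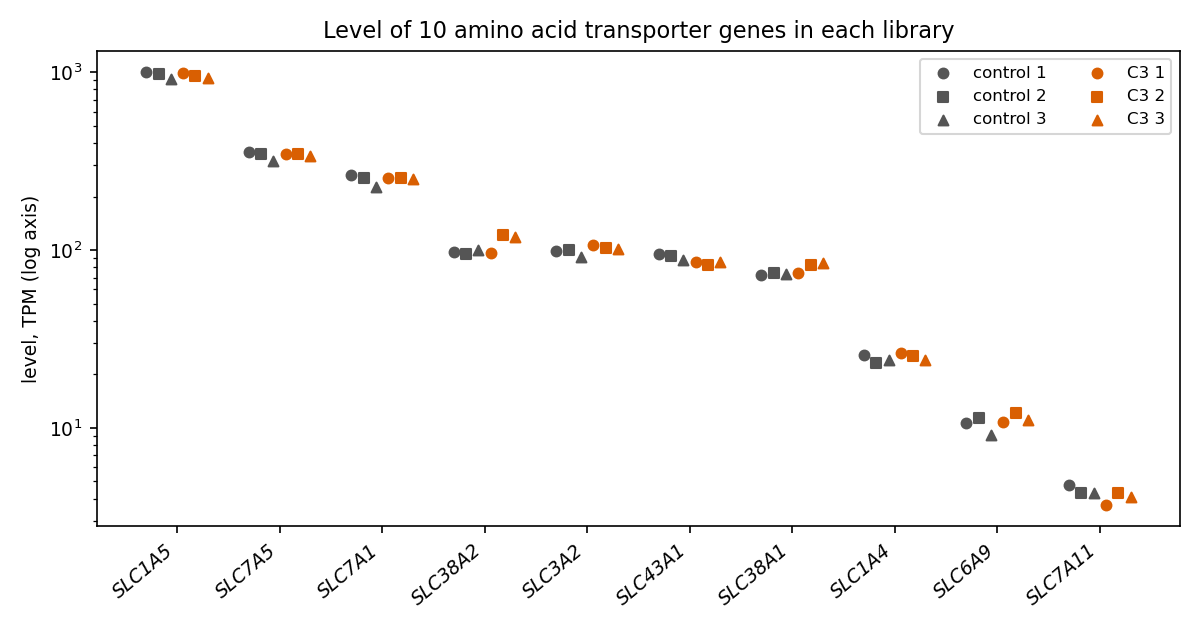
Level in TPM (log y axis) of the 10 transporter genes in each library, ordered by the control mean, with control libraries in grey and C3 libraries in orange (circle, square and triangle for replicates 1 to 3). SLC1A5, SLC7A5 and SLC7A1 stand above the rest in every library, and SLC7A11 is lowest at 3.70 to 4.79 TPM.

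The 3 C3 libraries were not alike for these genes. C3 replicate 1 had the highest normalised count of the C3 libraries for 6 of the 10 transporters, C3 replicate 2 for 3 and C3 replicate 3 for 1. The same shares over all tested genes were not computed. Pairs of libraries also differed over all tested genes, with chi-square over degrees of freedom of 2.42 to 8.17 in control and 2.94 to 7.58 in C3. Without C3 replicate 1, SLC1A5 joined SLC43A1, so that 2 transporters were lower, and the median of the group went from -0.086 to -0.13. Lower calls over all tested genes also went up, from 612 of 15078 to 1084 of 14865. Without C3 replicate 3, 0 transporters were called, the median was -0.044, and 199 of 14701 tested genes were lower. With any other library left out, 0 transporters were called too, with medians from -0.098 to -0.052. With scaling by library size alone, the median log2 fold change of all tested genes went from 0.0021 to 0.076, leaving 5 of the 10 transporters negative, compared with 8 under TMM scaling. The directions of SLC3A2, SLC1A4 and SLC6A9 flipped with it. These counts are shares of a library, and RNA per cell was not measured.

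ATF4 is a main activator of amino acid transporter genes, so its known sequence element was searched in the same windows. The element, known as CARE, was taken as TGATGNAA on either strand. It was found in 5 of the 16 windows, one each of 5 genes, against 3.62% of all promoter windows. The 5 matches are given for comparison, each on the strand where the element reads forward, with the element in capitals. SLC1A4 (chr2:64989382-64989409, reverse), SLC7A1 (chr13:29595664-29595691, reverse), SLC38A1 (chr12:46266503-46266530, reverse), SLC1A5 (chr19:46784894-46784921, reverse) and SLC3A2 (chr11:62881726-62881748, reverse) have 10 bases shown on either side, or fewer where the window ends.
SLC1A4: cggctggagaTGATGCAAacgggagccg
SLC7A1: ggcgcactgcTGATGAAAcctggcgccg
SLC38A1: cagacccgaaTGATGAAAagggatcagc
SLC1A5: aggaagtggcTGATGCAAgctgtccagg
SLC3A2: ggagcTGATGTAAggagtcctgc
On the strand of each gene, the match begins 7 bases before the start site in SLC1A4, 4 before in SLC38A1, 97 before in SLC1A5, 7 after in SLC7A1 and 37 after in SLC3A2. For SLC1A5, SLC38A1, SLC1A4 and SLC3A2 these belong to start sites other than the one nearest the annotated gene start. None of the 5 genes with a match was called. The window of SLC1A4 with its match is chr2:64989149-64989448 on the forward strand, where the element appears as its reverse complement in capitals.
SLC1A4: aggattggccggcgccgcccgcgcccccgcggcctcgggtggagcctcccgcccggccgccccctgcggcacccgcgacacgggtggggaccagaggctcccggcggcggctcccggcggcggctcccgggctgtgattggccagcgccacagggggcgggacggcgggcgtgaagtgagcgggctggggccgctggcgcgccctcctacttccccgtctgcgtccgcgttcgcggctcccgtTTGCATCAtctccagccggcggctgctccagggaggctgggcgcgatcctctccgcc

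ATF4 itself had 4261 ± 10.9 normalised counts in control and 4556 ± 128 in C3 cells (SD, n = 3, log2 fold change 0.097, adjusted p = 0.280 from edgeR's test). All its C3 libraries lay above all control libraries, and it did not pass the test under any alternative, library size alone giving 0.17 (adjusted p = 0.036, edgeR). A hand-written list of ATF4-responsive genes includes ATF4 itself. Of its 19 tested genes, 1 was higher and 1 lower at an adjusted p-value below 0.01, beside 6.51% and 4.06% of all tested genes. The log2 fold change was positive in 14 and negative in 5, with a median of 0.097, and the C3 libraries lay all above the controls in 5 and all below in 4, beside 17.5% and 16.9%. The lower was ATF5, a related transcription factor, with a log2 fold change of -0.93 (adjusted p = 3.8e-09 from edgeR's test), and the higher was CEBPB (0.38, adjusted p = 0.0016), whose call was lost without control replicate 2. Asparagine synthetase ASNS, often used as a readout of ATF4, was scarce at 21.9 ± 2.90 and 26.0 ± 1.89 normalised counts (SD, n = 3, log2 fold change 0.26, adjusted p = 0.600 from edgeR's test). EIF2AK4 (GCN2), the kinase that senses uncharged tRNA, had a log2 fold change of -0.16 (adjusted p = 0.099 from edgeR's test).

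Of 29 further plasma membrane amino acid transporters, 13 passed the count filter, 1 was higher and 0 were lower, beside 6.51% and 4.06% of all tested genes. Their median log2 fold change was 0.15. The higher gene, SLC1A6, is a glutamate carrier and is named after its values were seen. It had 0, 3 and 3 counts in control replicates 1 to 3 and 24, 16 and 20 in C3 replicates 1 to 3. It met the count filter only through the C3 libraries in which it was high, so its call is a description. DESeq2 did not call it. Of the 13 tested genes, 10 had a positive and 3 a negative log2 fold change. All C3 libraries lay above the controls in 5 of them and below in 1, beside 17.5% and 16.9% of all tested genes.

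The lists of lysosomal and mitochondrial carriers gave 1 lower gene each, where 4.06% of all tested genes were lower. Of 6 tested lysosomal amino acid carriers, SLC66A1, which exports cationic amino acids from lysosomes, was lower, with 283 ± 9.48 normalised counts in control and 212 ± 19.3 in C3 cells (SD, n = 3, log2 fold change -0.42, adjusted p = 0.0070 from edgeR's test). The call was lost by DESeq2 and in 5 of 6 cases with a library left out, C3 replicate 1 being the exception. Of 10 mitochondrial carriers, SLC25A13, the aspartate-glutamate carrier citrin, was lower (log2 fold change -0.26, adjusted p = 0.0083 from edgeR's test), a call lost with any library left out and with scaling by library size alone. Of 22 amino acid synthesis genes, edgeR called 0 in either direction. At an unadjusted p below 0.05 it had 3 higher and 4 lower, beside 16.8% and 15.3% of all tested genes, and DESeq2 and limma-voom called 1 lower each. Without C3 replicate 1, edgeR called 1 higher and 3 lower, where 1104 and 1084 of 14865 tested genes were called.

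Another list held genes that relay amino acid supply to the growth kinase mTORC1. Of 36 tested, 2 were higher and 6 lower, beside 6.51% and 4.06% of all tested genes, with a median log2 fold change of -0.046. WDR59, a subunit of GATOR2, rose (log2 fold change 0.33, adjusted p = 5.5e-04 from edgeR's test), as did the leucine sensor family member SESN3 (0.48). ITFG2, of the KICSTOR complex, fell from 202 ± 13.3 to 129 ± 12.2 normalised counts (SD, n = 3, log2 fold change -0.65, adjusted p = 6.9e-04 from edgeR's test), and its partner KPTN fell too (-0.40). NPRL3, of GATOR1, fell (-0.33, adjusted p = 0.0016), and the remaining 3 were RRAGA, LAMTOR5 and MLST8, between -0.29 and -0.26. SESN3, KPTN and the last 3 genes were named with their values in view. The higher calls numbered 1, WDR59 alone, without control replicate 1, C3 replicate 2 or C3 replicate 3. Higher calls over all tested genes then numbered 716, 795 and 579, against 982 in the main fit. The lower calls numbered 1 with scaling by library size alone, 3 by DESeq2, 1 without control replicate 1 or C3 replicate 3, 2 without control replicate 2 or C3 replicate 2, 6 without control replicate 3 and 7 without C3 replicate 1. Lower calls over all tested genes, 612 in the main fit, numbered 250, 634, 279 or 199, 254 or 347, 454 and 1084 in the same order. WDR59 and ITFG2 passed in all of these fits, while NPRL3 was lost without control replicate 1, without C3 replicate 3 and with library size alone.

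For glutathione, which is built from the cystine that SLC7A11 imports, 1 of 10 tested genes was higher and 1 lower, beside 6.51% and 4.06% of all tested genes. Glutathione synthetase GSS fell (log2 fold change -0.27, adjusted p = 0.0056 from edgeR's test), and GGT1, which breaks down glutathione outside the cell, rose from 93.9 ± 10.5 to 150 ± 10.5 normalised counts (SD, n = 3, log2 fold change 0.67, adjusted p = 0.0018 from edgeR's test). GSS kept its call in 1 of 6 cases with a library left out, and GGT1 lost it without control replicate 2 or C3 replicate 3. Among 9 regulators of transporter genes or proteins, 1 was higher and 3 lower, to be set against the same 6.51% and 4.06%. The ubiquitin ligase NEDD4L rose (log2 fold change 0.39, adjusted p = 5.9e-04 from edgeR's test) and the ubiquitin ligase RNF5 fell (-0.32, adjusted p = 4.9e-04). KEAP1 (-0.34), named with its values in view, was also lower. The lower calls of this list numbered 1 without control replicate 2 or C3 replicate 3, where those over all tested genes numbered 254 and 199. NFE2L2, an activator of SLC7A11 that KEAP1 restrains, had a log2 fold change of -0.12 (adjusted p = 0.307 from edgeR's test).

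Finally, the genes closest to SLC43A1 over the 6 libraries were listed by the root mean square distance of their log2 normalised counts, each centred on its control mean, among 11850 genes with a mean normalised count of at least 50. These were HPS1, which serves the biogenesis of lysosome-related organelles such as platelet dense granules, at a distance of 0.014, and TOR3A and ESYT1, each at 0.018. Their log2 fold changes were -0.24, -0.24 and -0.25, which follows from how they were chosen and is a description only.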

How the data were processed

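RNA of 3 control and 3 C3 libraries of Meg-01 cells was sequenced from NEBNext Ultra libraries. The authors cleaned reads with fastp, aligned them with STAR to GRCh38 and assigned them to genes with featureCounts (versions 2.6.1d and 1.5.0-p3 in the submitters' processing notes). They deposited these gene counts raw, without normalization. Neither the annotation release nor the strand setting is given in the sources used here. Columns were matched to samples by an abbreviated group name and replicate number.

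Genes reaching 10 counts in 3 or more libraries were scaled with TMM factors and tested with edgeR 4.0.16 (R 4.3.3). Normalised counts use the effective (TMM-scaled) library sizes, brought to their mean. The standard error was taken as log2 fold change over the root of F, and intervals cover 95%. TPM were computed here from merged exon lengths of GENCODE release 44, which gave symbols for 58207 genes. Alternatives were RLE factors, library size alone, DESeq2 1.42.0, limma-voom (limma 3.58.1), omission of the count filter, a minimum mean count of 50, a replicate block and each library left out. The methods were tested on simulated data. No pair of libraries of a group agreed within sampling noise (lowest chi-square over degrees of freedom 2.42).

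The transporters and gene lists were chosen with earlier results of these data known. Named genes were the 10 transporters, up to 3 called genes with the smallest p-values and a mean normalised count of at least 50 in each other list, MYC, ATF4, NFE2L2, EIF2AK4, ASNS, SLC7A5P1, SLC7A5P2 and the 3 nearest patterns. Others are marked. Some items that meet this rule are not reported here.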

Additional observations from a re-analysis of the deposited data

How the results depend on the processing

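Over 13 alternatives for each of the 10 transporters, the direction held in 116 of 130 log2 fold changes and the side of the threshold in 123. Transporters called lower numbered 0 with library size alone and 0 to 2 with each library left out. Lower calls over all tested genes numbered 250 and 199 to 1084 in these fits, and the cause was not tested. SLC43A1, the only transporter called in the main fit, stayed negative throughout (-0.29 to -0.18) but kept its call in only 7 of the 13 alternatives. Library size alone reversed SLC3A2 (0.051), SLC1A4 (0.0030), SLC6A9 (0.072) and SLC7A5P1 (0.045). SLC6A9 also reversed without the count filter (0.0081), with a minimum mean count of 50 (0.011) and the replicate block (0.0027), SLC38A1 with DESeq2 (-1.7e-04), and SLC7A5P1 with limma-voom (0.085) and the block (0.047). With each library left out, SLC3A2 ranged from -0.077 to 0.015, SLC38A1 from -0.0069 to 0.034, SLC6A9 from -0.058 to 0.060 and SLC7A5P1 from -0.35 to 0.29. These genes were not called in any of them.

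For the other lists, calls moved as follows. RLE factors gave 2 lower synthesis genes. Library size alone gave 2 higher further plasma membrane transporters, 0 lower lysosomal carriers, 1 higher and 0 lower mitochondrial carriers, 1 higher synthesis gene, 1 lower mTORC1 gene and 0 lower glutathione genes, with calls over all genes of 1319 higher and 250 lower (84.1% higher, against 61.6%). DESeq2 gave 0 higher plasma membrane transporters, 0 lower lysosomal carriers, 1 lower synthesis gene and 3 lower mTORC1 genes, and limma-voom 1 lower synthesis gene. Without the count filter there were 1 higher and 0 lower mitochondrial carriers and 1 higher and 2 lower synthesis genes. A minimum mean count of 50 gave 0 higher plasma membrane transporters, 0 lower lysosomal and mitochondrial carriers and 2 lower mTORC1 genes. The block gave 1 higher mitochondrial carrier and 1 lower synthesis gene. With each library left out, calls ranged from 0 to 1 higher and 0 to 1 lower plasma membrane transporters, 0 to 1 lower lysosomal and 0 lower mitochondrial carriers, 0 to 1 higher and 0 to 3 lower synthesis genes, 1 to 2 higher and 1 to 7 lower mTORC1 genes, 0 to 1 higher ATF4-responsive genes, 0 to 1 higher and 0 to 2 lower glutathione genes and 1 to 3 lower regulators, and over all genes from 579 to 1104 higher and 199 to 1084 lower. The causes were not tested.

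Whether same-numbered libraries share a culture or batch is not stated. Their deviations from the group means correlated at 0.021, -0.047 and 0.030 across genes, and not every library correlated best with its own number. With 3 libraries in each group, such correlations cannot settle whether they are paired. A replicate block raised the calls over all genes from 982 to 1273 higher and from 612 to 897 lower and left the transporter calls at 0 higher and 1 lower. It left the ratio of SLC7A5 to SLC3A2 at -0.089 with an exact permutation p-value of 0.25. That is as small as it can be with 3 pairs, so it does not show a weaker difference. For SLC7A11 and SLC6A9, counting error limits what can be seen.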
